A study of Mus musculus with 24 samples.

Results

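A set of 10 genes that marks thermogenic brown fat was followed in uninjured mouse carotid arteries: Ucp1, Otop1, Cidea, Plin5, Dio2, Ppargc1a, Prdm16, Elovl3, Fabp3 and Cpt1b. They were taken by gene symbol, each symbol matching 1 Ensembl gene, so 10 of the 55421 genes in each table are described. All animals were ovariectomized C57BL/6 female mice with their ovarian estrogen supply removed, and each of the 24 carotid artery libraries carries its own number in its title, read here as an animal number. The OVX group received vehicle, the E2 group 17β-estradiol, the E4 group estetrol and the TAM group tamoxifen, with 6 libraries per group. E4 is a natural estrogen of pregnancy that carries further hydroxyl groups on the E2 skeleton, and tamoxifen is a nonsteroidal drug that acts on the estrogen receptor as an agonist or antagonist depending on the tissue. The labels give an age of 9 weeks, and the series description gives 3 weeks of estradiol or tamoxifen treatment, whereas the methods of the study describe a shorter course of subcutaneous pellets with cholesterol as the vehicle. The E2 and E4 pellets held different amounts of hormone. The paper reports choosing them for a similar estrogenic action, judged by uterine weight, because the hormones differ in receptor affinity. The route and dose of tamoxifen are not given in the sources used here. The E4 libraries are named E4 in their titles while their treatment entry reads Placebo, and the titles were followed here.

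Brown adipocytes burn fuel to make heat. Norepinephrine released from sympathetic nerves acts on β-adrenergic receptors and raises cyclic AMP, which drives lipolysis and switches on the thermogenic genes. The fatty acids set free are burnt in mitochondria, where uncoupling protein 1 lets protons flow back without making ATP. The fat around large arteries of the mouse, the perivascular adipose tissue, has brown character, and a dissected artery carries some of it. In bulk tissue of this kind, fewer brown adipocytes and less of a transcript per adipocyte cannot be told apart.

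RefSeq promoter windows (GRCm38.p6, from 250 bases before to 50 bases after the transcription start) were found for 7 of the 10 genes. Those of Ucp1 and Dio2 are shown because these genes carried the main differences and because the thermogenic program is driven by cyclic AMP. The Ucp1 window lies at chr8:83290098-83290397 on the plus strand and the Dio2 window at chr12:90738989-90739288 on the minus strand. Both run 5′ to 3′, and capitals mark the motifs found.
Ucp1: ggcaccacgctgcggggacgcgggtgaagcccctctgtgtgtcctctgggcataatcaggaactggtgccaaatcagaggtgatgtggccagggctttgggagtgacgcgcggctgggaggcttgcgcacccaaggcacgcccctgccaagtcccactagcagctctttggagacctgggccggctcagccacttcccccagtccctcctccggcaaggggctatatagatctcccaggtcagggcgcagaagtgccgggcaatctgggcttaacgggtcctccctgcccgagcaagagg
Dio2: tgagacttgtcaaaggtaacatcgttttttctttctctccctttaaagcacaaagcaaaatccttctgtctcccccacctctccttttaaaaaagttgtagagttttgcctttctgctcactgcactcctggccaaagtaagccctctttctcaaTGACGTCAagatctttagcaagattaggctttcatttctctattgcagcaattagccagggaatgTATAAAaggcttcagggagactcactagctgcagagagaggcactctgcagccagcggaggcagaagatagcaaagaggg
Both strands were searched for TATAAA (the core promoter box), TGACGTCA (cyclic AMP response element), TCAAGGTCA (estrogen-related receptor element) and the palindromic estrogen response element, read as GGTCA and its reverse complement with any 3 bases between them. The Dio2 window held TGACGTCA, beginning 95 bases before the start, and TATAAA, beginning 30 bases before it. The windows of the other 6 genes, Ucp1 included, held none of the 4. Among 32851 promoter windows of the same length, 13.6% held TATAAA, 1.79% TGACGTCA, 0.423% TCAAGGTCA and 0.07% the estrogen response element. These matches describe the letters in the window alone. The start site that RefSeq gives for Dio2 lies outside the GENCODE M21 model of the gene, the annotation used here.

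Libraries held between 24647246 and 64221401 counted reads, with a median of 45156106.5, and even the weakest of the 10 genes had at least 122 counts in every library. Lists of marker genes of other cell types differed between libraries. All 15 adipocyte markers were detected, with summed levels from 5573 to 12060 CPM (reads counted for a gene, scaled to the size of the library) over the 24 libraries, and so were all 7 smooth muscle and all 6 endothelial markers. The summed level of 12 sympathetic neuron markers was 50.8 CPM in the OVX library C5 and 273.8 CPM in the TAM library C35, against 2760 to 9927 CPM in the others. Summed skeletal muscle markers ranged from 58.58 to 315.8 CPM. Thyroid and parathyroid markers reached 5237 CPM in the E4 library C38, and T cell markers reached 435.6 CPM in the E2 library C9.

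Cidea and Ucp1 were by far the most abundant of the 10 genes when expressed per length. In OVX arteries, Cidea stood at 494.2 CPM per kilobase of exon and Ucp1 at 359.2, followed by Cpt1b at 33.7. Plin5 (19.8), Dio2 (15.9) and Fabp3 (14.2) formed the middle of the order, and Otop1 (8.31), Elovl3 (8.16), Prdm16 (4.68) and Ppargc1a (3.66) its lower end, all in CPM per kilobase. Elovl3 varied most across the 24 libraries, with a 10.2-fold range in CPM, followed by Dio2 with 7.78-fold and Ucp1 with 4.93-fold. Ppargc1a varied least, by 2.29-fold. The OVX library C5, which nearly lacked sympathetic neuron transcripts, had the highest OVX level of 8 of the 10 genes, the exceptions being Prdm16 and Elovl3.

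**Figure D1:**
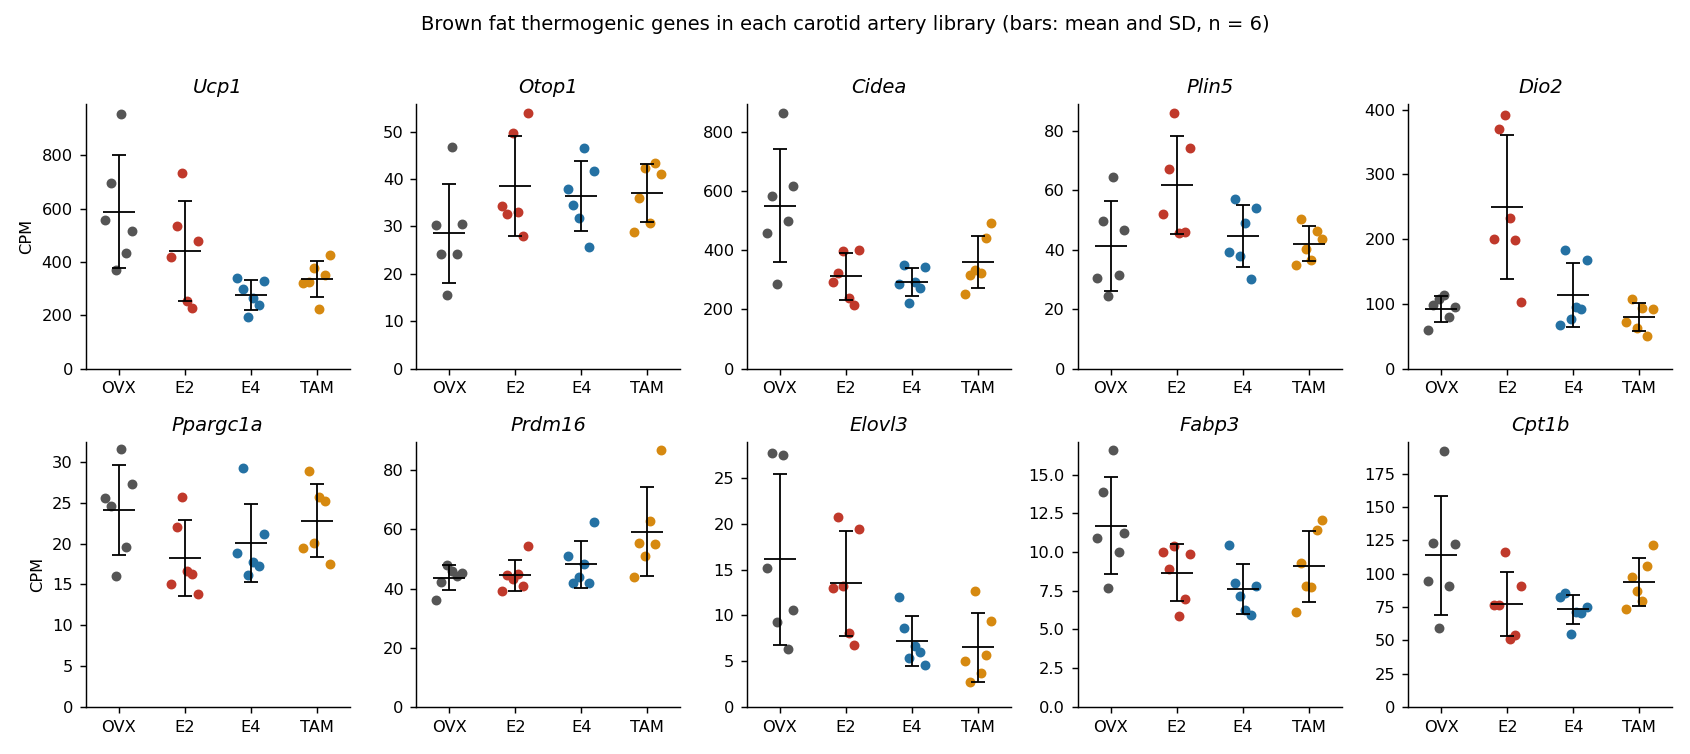
Level in CPM of each of the 10 genes in each library, with 6 libraries in each of the OVX, E2, E4 and TAM groups, and black bars for the mean and SD. The 6 E4 libraries lie below every OVX library for Ucp1, with 339.3 CPM as the highest E4 value and 368.4 CPM as the lowest OVX value, and 5 of the 6 E2 libraries lie above every OVX library for Dio2.

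The first question was which of these genes differed between treated and vehicle arteries. A gene was called when its adjusted p was under 0.05 and its log2 fold change was over 1 in either direction (edgeR quasi-likelihood test, all 24 libraries, Benjamini-Hochberg adjustment over 25033 genes). E2 raised 1 gene, Dio2, and lowered none, where 0.923% of all tested genes were called higher and 0.348% lower. E4 lowered 2 genes, Ucp1 and Elovl3, and raised none, where 1.69% of all tested genes were called lower and 0.823% higher. At the adjusted p alone E4 lowered 5 genes, adding Cidea, Fabp3 and Cpt1b, where 12.5% of all tested genes were lower. TAM gave 0 calls with edgeR, where 0.308% of all tested genes were called in either direction. DESeq2 called 1 with TAM, Elovl3, where it called 0.283% of 41655 genes. The unadjusted edgeR p was under 0.05 for 4 of the 10 genes with TAM. The share of all tested genes under that limit was not counted, so the 4 cannot be set against it. The median log2 fold change of the 10 genes was −0.33 with E2, −0.44 with E4 and −0.24 with TAM, beside medians of 0.01, −0.01 and 0.00 over all tested genes. The 3 comparisons share the 6 OVX libraries, so their values are not independent of each other. With OVX C5 and TAM C35 left out, 0 of the 10 genes were called with E4 and Dio2 was still the 1 gene called with E2.

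**Figure D2:**
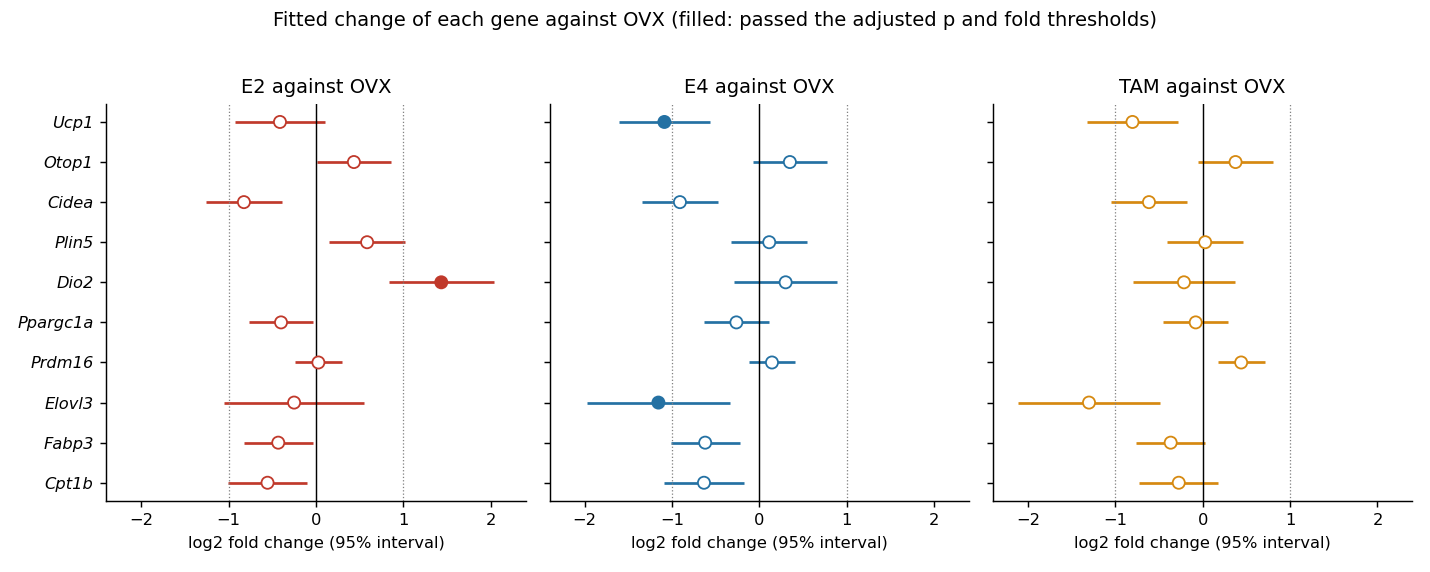
Fitted log2 fold change of each gene against OVX in the E2, E4 and TAM groups, with lines for the 95% interval, dotted lines at log2 fold changes of −1 and 1, and filled points for genes that passed both thresholds. Dio2 with E2 (1.43) and Ucp1 and Elovl3 with E4 (−1.09 and −1.16) are the filled points.

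Ucp1, the proton carrier that defines the brown adipocyte, lies on chromosome 8 from 83290352 to 83298452 (mm10). Its lowest, median and highest levels were 368.4, 536.1 and 955.3 CPM in OVX arteries and 193.8, 281.4 and 339.3 CPM in E4 arteries. Every E4 library was below every OVX library, a separation in this direction that 4.07% of all tested genes showed. The mean was 587.7 ± 212.3 CPM in OVX and 276.7 ± 55.78 CPM in E4 arteries (SD over 6 libraries), with a log2 fold change of −1.09 (SE 0.25, 95% interval −1.61 to −0.56, edgeR adjusted p = 0.00515), or 2.12-fold lower. In TAM arteries Ucp1 ranged from 222.8 to 424.2 CPM with a median of 337.1 CPM, overlapping OVX, and its log2 fold change of −0.80 (SE 0.25) did not pass (edgeR adjusted p = 0.0779). In E2 arteries it ranged from 228.8 to 732.9 CPM with a median of 449.3 CPM, the widest spread of the treated groups, at a log2 fold change of −0.41 (SE 0.25, edgeR adjusted p = 0.466). This value moved between −0.62 without E2 C9 and −0.21 without OVX C5, and passed in none of the 12 fits that left out 1 library. The mean levels thus ran in the order OVX, E2, TAM and E4, and no neighbours in that order passed the test (edgeR adjusted p of 0.466, 0.394 and 0.792).

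The E4 difference in Ucp1 rested in part on OVX C5, the highest OVX library. Without it the log2 fold change was −0.89 (edgeR adjusted p = 0.0178), which passed the adjusted p but not the fold threshold, and the call held without any other single library. The animals fall into a first run of numbers up to 20 and a second from 24, which the labels do not describe as batches. The log2 fold change was −1.22 in the first run alone (edgeR adjusted p = 0.0305) and −0.77 in the second (edgeR adjusted p = 0.388, with 2 OVX and 3 E4 libraries). All 12 sympathetic neuron markers had positive log2 fold changes with E4, with a median of 0.83 and 0 of 12 called. All 12 were also positive with E2 and TAM (medians of 0.17 and 0.51). The 3 comparisons share OVX C5, which nearly lacked these transcripts. With the mean of this list as a covariate Ucp1 stood at −0.79 with E4 (edgeR adjusted p = 0.0153), which missed the fold threshold. This mean was 1.20 in OVX C5 and 3.97 in TAM C35, against 6.99 to 8.86 in the other libraries. These 2 libraries therefore weigh heavily in that fit. All 8 B cell markers were called lower with E4, at a median log2 fold change of −1.92, and the part of such cells in the Ucp1 result was not tested. Otop1, a proton channel of the plasma membrane, averaged 28.59 ± 10.48 CPM in OVX, 38.61 ± 10.57 in E2, 36.38 ± 7.37 in E4 and 37.08 ± 6.19 in TAM arteries (SD, n = 6 per group). Its log2 fold changes of 0.43, 0.35 and 0.38 did not pass (edgeR adjusted p of 0.298, 0.224 and 0.302), and the groups overlapped.

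Cidea, a lipid droplet protein of brown adipocytes that promotes droplet fusion, was lower in E2 and E4 arteries at the adjusted p but did not reach the fold threshold. Lowest, median and highest levels were 284.9, 540.7 and 863.1 CPM in OVX, 216.4, 307.3 and 400.8 CPM in E2 and 220.2, 288.9 and 349.3 CPM in E4 arteries. Of the OVX libraries only C4 lay within the E2 and E4 ranges. The log2 fold change was −0.82 with E2 (SE 0.21, edgeR adjusted p = 0.0247), where 1.28% of all tested genes were lower at the adjusted p, and −0.91 with E4 (SE 0.21, edgeR adjusted p = 0.00531). With TAM it was −0.61 (SE 0.21, edgeR adjusted p = 0.103) around a median of 328.3 CPM. The E2 difference lost the adjusted p in 6 of the 12 fits that left out 1 library (OVX C3, C5 or C25 or E2 C6, C26 or C27), where the adjusted p reached 0.068, and the E4 difference kept it in all 12. Plin5, which coats droplets and holds them at mitochondria, averaged 61.83 ± 16.62 CPM in E2 and 41.24 ± 15.1 CPM in OVX arteries (SD over 6 libraries), with a log2 fold change of 0.59 that did not pass (edgeR adjusted p = 0.13). Its log2 fold changes with E4 and TAM were 0.11 and 0.03. Cidea and Plin5, both droplet proteins, therefore had estimates of opposite sign with E2, of which that of Cidea alone passed the adjusted p.

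Dio2, the type 2 deiodinase that converts thyroxine to the active hormone T3 and is induced by cyclic AMP in brown fat, was the gene that E2 raised. It is encoded on chromosome 12 from 90724552 to 90738438 (mm10). Its lowest, median and highest levels were 59.35, 96.61 and 114.1 CPM in OVX and 103, 215.9 and 392.3 CPM in E2 arteries. The E2 library C29 sat within the OVX range, and the other 5 E2 libraries, from 198.5 CPM upward, lay above it. The mean was 249.3 ± 111.2 CPM in E2 and 92.3 ± 20.05 CPM in OVX arteries (SD over 6 libraries), with a log2 fold change of 1.43 (SE 0.29, 95% interval 0.83 to 2.03, edgeR adjusted p = 0.00358), or 2.7-fold higher. The call held without any 1 of the 12 libraries. It was 1.76 in the first run of animal numbers (edgeR adjusted p = 0.0391) and 1.02 in the second, where it did not pass (edgeR adjusted p = 0.473, with 2 OVX and 3 E2 libraries).

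E4 and TAM did not raise Dio2 detectably over OVX. E4 arteries ranged from 67.71 to 183.2 CPM with a median of 93.47 CPM, and C19 and C39 alone lay above the OVX range. The log2 fold change with E4 was 0.30 (95% interval −0.29 to 0.89, edgeR adjusted p = 0.461) and with TAM −0.21 (95% interval −0.80 to 0.37, edgeR adjusted p = 0.706). Mean levels ran in the order E2, E4, OVX and TAM, and of the neighbours in that order E2 and E4 alone passed the test. A long noncoding gene, Gm26512, overlaps Dio2 on the opposite strand, and the strand setting of the counting is not given in the sources used here.

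Ppargc1a and Prdm16 encode the regulators of the program, a transcriptional coactivator of mitochondrial and thermogenic genes and a factor that sets brown over muscle identity. Neither was called in any comparison with OVX. Ppargc1a averaged 24.12 ± 5.55 CPM in OVX, 18.27 ± 4.63 in E2, 20.09 ± 4.83 in E4 and 22.81 ± 4.45 in TAM arteries (SD, n = 6 per group), with log2 fold changes of −0.40, −0.26 and −0.08. Prdm16 averaged 43.66 ± 4.13 CPM in OVX, 44.51 ± 5.23 in E2, 48.26 ± 7.91 in E4 and 59.25 ± 14.92 in TAM arteries (SD, n = 6 per group). Its log2 fold change of 0.44 with TAM did not pass (SE 0.13, edgeR adjusted p = 0.0643) and was 0.32 without OVX C5 and TAM C35, the latter being the highest library of all at 86.97 CPM. In TAM C35 the summed smooth muscle markers stood at 8391 CPM, against 2336 to 4884 CPM in the OVX libraries, and their part in the Prdm16 value was not tested.

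Elovl3, an elongase that makes very long chain fatty acids and is induced in cold-activated brown fat, was called lower with E4. Its lowest, median and highest levels were 6.34, 12.92 and 27.69 CPM in OVX, 4.58, 6.36 and 11.97 CPM in E4 and 2.72, 5.37 and 12.61 CPM in TAM arteries. The OVX libraries C3 and C5, at 27.69 and 27.53 CPM, stood above all others, and the other 4 OVX libraries, from 6.34 to 15.19 CPM, overlapped the E4 and TAM ranges. The log2 fold change was −1.16 with E4 (SE 0.39, 95% interval −1.97 to −0.34, edgeR adjusted p = 0.0391) and −1.30 with TAM (SE 0.40, edgeR adjusted p = 0.0707). The E4 call was lost in 7 of the 12 fits without 1 library, namely OVX C3 or C5 or any E4 library other than C16, with an adjusted p of up to 0.119. Within the runs of animal numbers the E4 value was −1.20 and −0.55, and neither passed (edgeR adjusted p of 0.134 and 0.701). The call was also lost with the number run as a covariate (−1.02, edgeR adjusted p = 0.0559), with no filter on low counts (edgeR adjusted p = 0.0558), with the adipocyte or sympathetic neuron mean as a covariate (−0.87 and −0.80, edgeR adjusted p of 0.103 and 0.138) and without OVX C5 and TAM C35 (−0.92, edgeR adjusted p = 0.0887). E2 arteries, at 13.53 ± 5.73 CPM (SD, n = 6), gave a log2 fold change of −0.25 (edgeR adjusted p = 0.867).

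Fabp3 carries fatty acids in the cytosol and Cpt1b passes them into mitochondria for oxidation. Both were lower with E4 at the adjusted p without reaching the fold threshold. Fabp3 averaged 7.61 ± 1.61 CPM in E4 and 11.71 ± 3.11 CPM in OVX arteries (SD over 6 libraries), with a log2 fold change of −0.62 (SE 0.19, edgeR adjusted p = 0.0245). Cpt1b averaged 73.25 ± 10.96 CPM in E4 and 113.7 ± 44.89 CPM in OVX arteries (SD over 6 libraries), with a log2 fold change of −0.63 (SE 0.22, edgeR adjusted p = 0.0412). The highest library was OVX C5 for both, at 16.57 and 191.7 CPM, and without it the values were −0.49 and −0.41 and no longer passed (edgeR adjusted p of 0.0794 and 0.158). Fabp3 also lost the adjusted p without OVX C3 or E4 C20, C36 or C38 (5 of 12 fits in all), and Cpt1b without OVX C3 or C25 or E4 C19, C20, C36, C38 or C39 (8 of 12 fits in all). The E2 values of −0.43 and −0.55 and the TAM values of −0.37 and −0.27 did not pass.

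Because a dissected artery can carry more or less fat, Ucp1 was also set against adipocyte transcripts of the same library. The log2 level of Ucp1 minus the mean log2 level of the 15 adipocyte markers was 1.38 ± 0.22 in OVX, 0.81 ± 0.47 in E2, 0.49 ± 0.20 in E4 and 0.83 ± 0.28 in TAM arteries (SD, n = 6 per group). It ranged from 1.17 to 1.65 in OVX, from 0.05 to 1.38 in E2, from 0.17 to 0.71 in E4 and from 0.47 to 1.15 in TAM arteries, so that E4 and TAM did not overlap OVX and E2 did. The difference from OVX was −0.57 with E2, −0.89 with E4 and −0.55 with TAM. An exact two-sided permutation test over the 12 libraries of each comparison gave p = 0.0217, 0.00217 and 0.00217, or 0.0217, 0.00325 and 0.00325 after adjustment over the 3 comparisons, and 0.00217 is the smallest p that 6 against 6 libraries allow. The adipocyte markers themselves had a median log2 fold change of 0.04 with E2, −0.06 with E4 and −0.13 with TAM. Adiponectin (Adipoq) did not pass in any of them (log2 fold changes of −0.23, −0.26 and −0.28), whereas E4 lowered leptin (Lep) and resistin (Retn), TAM lowered Lep, and E2 raised adipsin (Cfd), Retn and Cfd being named after their values were seen. Against Adipoq alone the differences were −0.26 with E2, −0.81 with E4 and −0.51 with TAM (exact permutation tests, adjusted p of 0.32, 0.00649 and 0.0422). The ratio of Ucp1 to Adipoq CPM ranged from 0.874 to 1.29 in OVX, from 0.482 to 1.33 in E2, from 0.4999 to 0.776 in E4 and from 0.4895 to 0.969 in TAM arteries. On this scale only E4 did not overlap OVX, since 3 of the 6 TAM libraries lay above the lowest OVX library, C4. In a fit with the adipocyte mean as a covariate, Ucp1 stood at −0.83 with E4 (edgeR adjusted p = 0.0021).

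**Figure D3:**
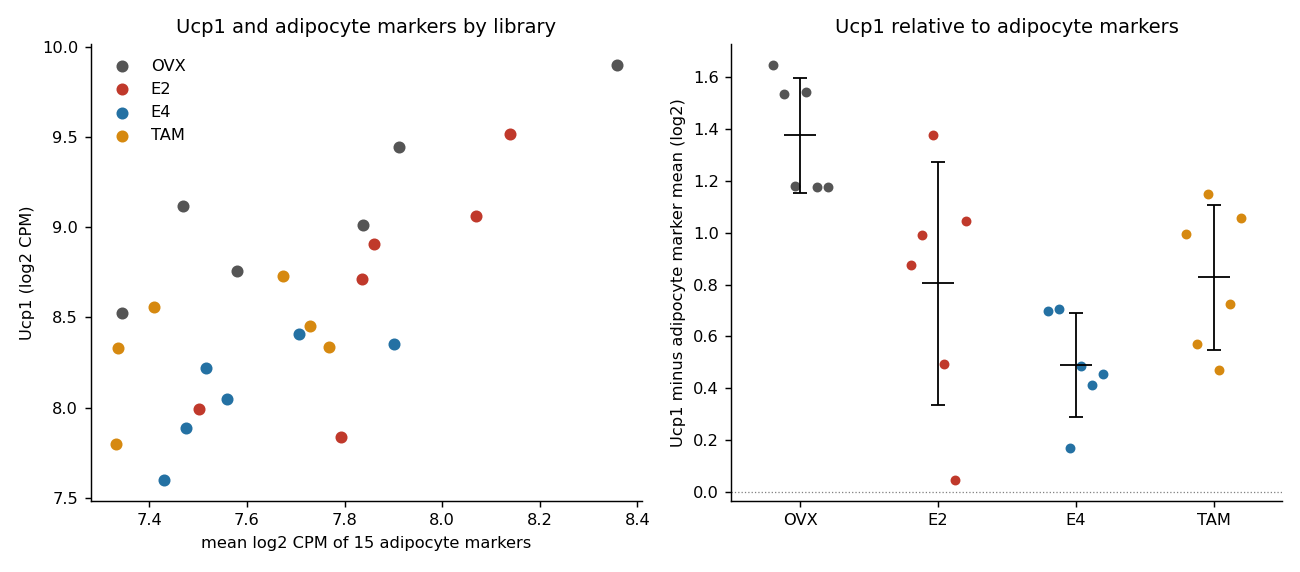
Left, log2 CPM of Ucp1 against the mean log2 CPM of 15 adipocyte markers in the 24 libraries. Right, the difference between the values by group, with black bars for the mean and SD of 6 libraries, where OVX (1.17 to 1.65) lies above E4 (0.17 to 0.71) and TAM (0.47 to 1.15) and overlaps E2.

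Between the treated groups Dio2 was the gene that differed. E4 arteries had less Dio2 than E2 arteries (log2 fold change −1.13, SE 0.29, edgeR adjusted p = 0.0144), as did TAM arteries (log2 fold change −1.65, SE 0.29, edgeR adjusted p = 0.000908). Dio2 was the 1 gene of the 10 called in each of these comparisons, where 2.25% and 1.39% of all tested genes were called lower. Without the E2 library C8 or C9 the E4 difference was −0.99 or −0.96, which kept the adjusted p and missed the fold threshold. With the adipocyte marker mean as a covariate it was −0.93 (edgeR adjusted p = 0.0618), while the TAM difference was −1.39 (edgeR adjusted p = 0.0082). In the second run of animal numbers alone neither passed, at −0.57 for E4 and −1.17 for TAM (edgeR adjusted p of 0.822 and 0.219). Ucp1 was lower in E4 than in E2 arteries by a log2 fold change of −0.67 that did not pass (95% interval −1.19 to −0.16, edgeR adjusted p = 0.0761). With the adipocyte marker mean as a covariate this was −0.25 (edgeR adjusted p = 0.446). It was −1.02 in the first run and −0.20 in the second (edgeR adjusted p of 0.0567 and 0.986). Without OVX C5 and TAM C35 it was −0.66 and passed the adjusted p alone (edgeR adjusted p = 0.035). Between TAM and E4 0 of the 10 genes were called with edgeR, where 0.196% of all tested genes were called. The unadjusted p was under 0.05 for 1 gene, Prdm16, and the share of all tested genes under that limit was not counted. The E2 and E4 amounts differed, having been chosen in the paper for a similar estrogenic action, and the tamoxifen dose is not given. These values therefore compare the treatments as given.

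Of a wider list of 50 thermogenic pathway genes, 49 were matched and 47 were tested. E2 raised 3 and lowered 1 by the same thresholds, where 0.923% of all tested genes were called higher and 0.348% lower. E4 raised 2 and lowered none, beside 0.823% and 1.69% of all tested genes. TAM changed none with edgeR, where 0.308% of all tested genes were called in either direction. The unadjusted p was under 0.05 for 11 of the 47 genes with TAM, and the share of all tested genes under that limit was not counted. The median log2 fold change of the list was −0.08, −0.03 and −0.04. Bmp8b, which encodes a secreted factor that raises the response of brown fat to norepinephrine, had the largest change. Its lowest, median and highest levels were 1.19, 1.62 and 1.94 CPM in OVX, 11.48, 14.87 and 20.62 CPM in E2, 3.24, 5.25 and 6.78 CPM in E4 and 1.12, 1.84 and 2.24 CPM in TAM arteries. E2 and E4 libraries all lay above the OVX range, as did those of 2.0% and 5.3% of all tested genes. Every E2 library lay above every E4 library, as for 4.13% of all tested genes. The log2 fold change over OVX was 3.25 with E2 (SE 0.19, edgeR adjusted p = 1.62e-10), 1.76 with E4 (SE 0.18, edgeR adjusted p = 5.25e-06) and 0.18 with TAM (edgeR adjusted p = 0.605). Ppie and Gm17244 overlap its exons on the opposite strand.

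Irf4, a transcription factor of fasting and thermogenesis in fat that lymphocytes also express, rose with E2 (log2 fold change 1.53, SE 0.30, edgeR adjusted p = 0.00252) and with E4 (1.56, SE 0.30, edgeR adjusted p = 0.0015). It averaged 29.95 ± 17.53 CPM in OVX, 86.16 ± 25.75 in E2, 88.4 ± 16.02 in E4 and 47.97 ± 17.07 in TAM arteries (SD, n = 6 per group). All 8 T cell markers had positive log2 fold changes with E2 (median 1.4995) and negative ones with E4 (median −1.65), which did not pass the test, and the 8 B cell markers were called lower with E4. Summed T cell markers stood at 435.6 CPM in the E2 library C9, which also had the highest Irf4 (121.4 CPM), and at 13.04 to 40.27 CPM in the other E2 libraries, against 16.19 to 58.55 CPM in OVX. Without E2 C9 the Irf4 change with E2 was 1.40 (edgeR adjusted p = 0.00853). Alpl, the tissue-nonspecific alkaline phosphatase, rose with E2 from 6.49 ± 0.55 to 13.36 ± 2.02 CPM (SD, n = 6 each; log2 fold change 1.04, edgeR adjusted p = 1.06e-05), and its log2 fold change was 0.98 without the E2 library C26. Slc27a2, a fatty acid transporter and acyl-CoA synthetase, fell with E2 from 30.97 ± 19.27 to 9.54 ± 4.01 CPM (SD over 6 libraries), with a log2 fold change of −1.70 (SE 0.35, edgeR adjusted p = 0.00455), and averaged 30.74 ± 9.04 CPM with E4. At the adjusted p alone E2 raised 7 of the 47 genes, where 2.88% of all tested genes were higher, and lowered 2, Slc27a2 and Ppara, where 1.28% were lower, Ppara being named after its value was seen. E4 raised 6 of the 47, where 9.52% of all tested genes were higher, and lowered 3, where 12.5% were lower. The 6 were Bmp8b, Irf4, Alpl, Nrip1, Ucp2 and Eva1a, the last 3 being named after their values were seen. The 3 were Cox7a1, Cox8b and P2rx5, the first 2 being muscle-type and brown fat isoforms of cytochrome c oxidase subunits. P2rx5, a purinergic receptor used as a brown fat marker, is named after its value was seen. Their log2 fold changes with E4 were −0.81, −0.86 and −0.74 (edgeR adjusted p of 0.013, 0.0105 and 0.0092).

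**Figure D4:**
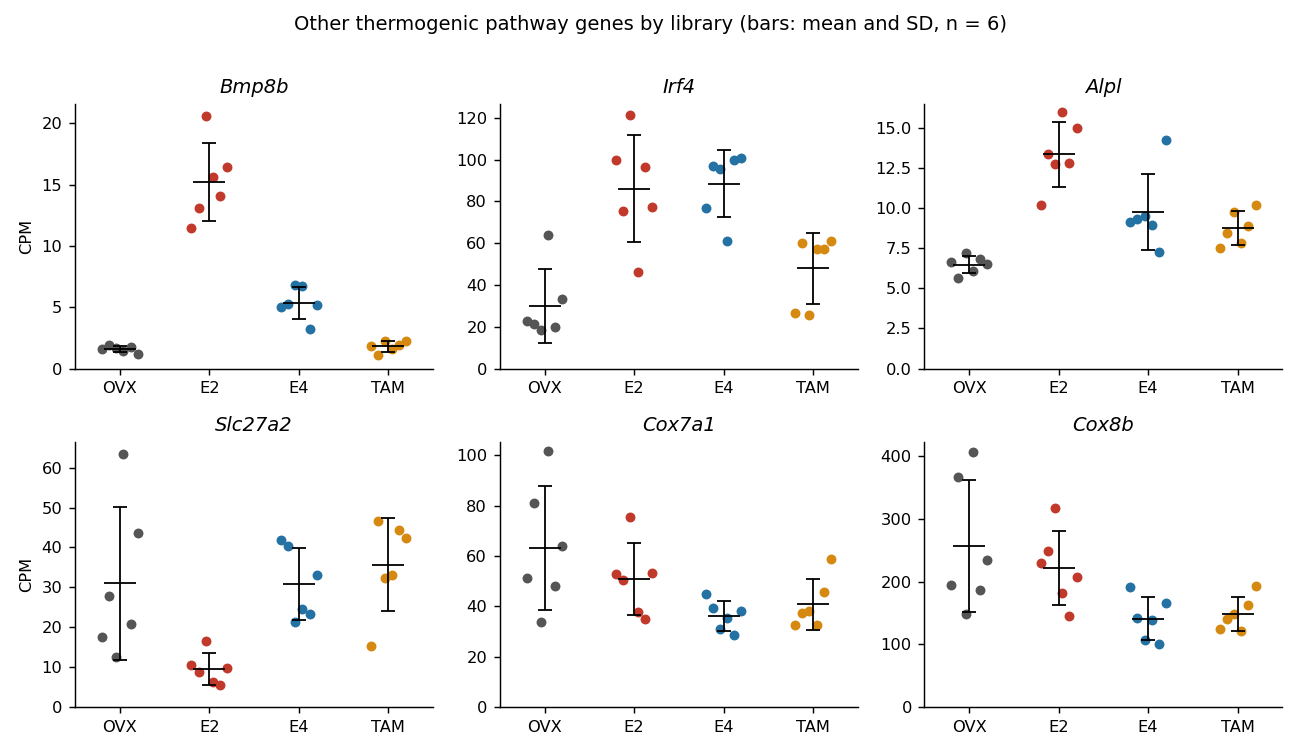
CPM of 6 other thermogenic pathway genes in each library, with black bars for the mean and SD of 6 libraries per group. Bmp8b in E2 arteries (11.48 to 20.62 CPM) lies above all other libraries, and Slc27a2 is lowest in E2 arteries (mean 9.54 CPM).

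The genes did not all vary together within groups. After the mean of each group was removed, the Pearson correlation of log2 CPM with Ucp1 over the 24 libraries was 0.88 for Cpt1b, 0.79 for Cidea, 0.77 for Plin5, 0.76 for Fabp3, 0.72 for Elovl3 and 0.70 for Otop1. It was 0.47 for Ppargc1a, 0.24 for Dio2 and 0.18 for Prdm16, beside a median of −0.04 over 16270 protein-coding genes. The groups differed in sign for these 3, each value resting on 6 libraries. Ppargc1a stood at 0.87 in OVX, 0.58 in E2, 0.56 in E4 and −0.59 in TAM arteries, Dio2 at 0.24, 0.36, 0.38 and −0.29, and Prdm16 at −0.15, 0.22, 0.60 and 0.22. The other 6 genes were positive in every group, from 0.43 to 0.98. The coding genes outside the 10 whose pattern was most like that of Ucp1 were Slc25a5 (0.91), Isca2 (0.90), Ppif (0.89), Atpaf2 (0.89), Grpel1 (0.89), Ndufb3 (0.89), Cox8b (0.89), Txn2 (0.88), Cox7a1 (0.88) and Ndufa8 (0.88). The libraries differed in tissue content and depth, so these values are descriptions of co-variation and carry no test.

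**Figure D5:**
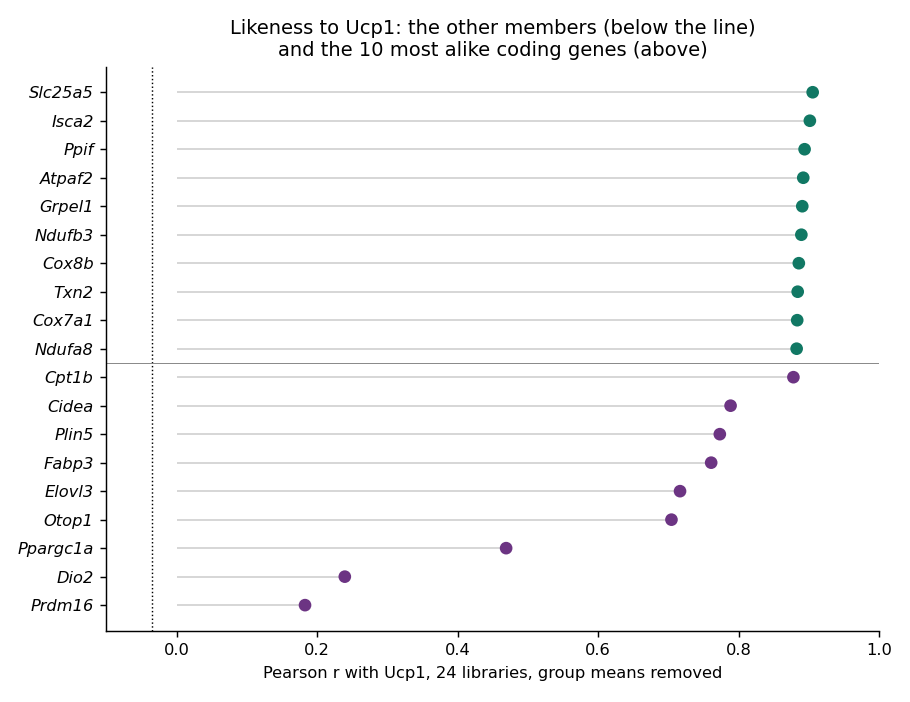
Pearson correlation of log2 CPM with Ucp1 over 24 libraries after group means were removed, for the other 9 genes (below the line) and the 10 most alike protein-coding genes (above it), with a dotted line at the median of 16270 coding genes (−0.04). Dio2 (0.24) and Prdm16 (0.18) lie lowest, and Cpt1b (0.88) is close to the 10 most alike genes.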

How the data were processed

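RNA-seq of carotid arteries was analysed in 24 libraries, 6 in each of the OVX, E2, E4 and TAM groups, assigned from the sample titles. The authors deposited estimated counts per gene, 1 unnormalized table per library. Per the labels, the submitters' processing notes name bcl2fastq 2.17, Trim Galore, Bowtie2, featureCounts and mm10, and libraries were made with a stranded mRNA kit. The strand setting is not given in the sources used here. Between 8.87% and 9.81% of the values per table had decimals and were rounded. Of 55421 genes, 55240 had a GENCODE M21 identifier, and 0 library pairs were identical.

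The quasi-likelihood functions of edgeR 4.0.16 (R 4.3.3) were run on all 24 libraries together, with TMM scaling and edgeR's default filter on low counts, which left 25033 genes. Genes were called when the Benjamini-Hochberg adjusted p was under 0.05 and the log2 fold change was over 1 in either direction, the thresholds of the study. Standard errors came from the F statistic. Log2 CPM used a prior count of 2. Exact permutation tests used scipy 1.17.1. When tested on simulated data for E2 against OVX (25033 genes, 200 changed by a log2 fold change of 1.5), the edgeR procedure recovered 93% of the changed set and called 1 gene that had not been changed. The simulated counts were drawn independently for each gene with the spread that edgeR estimated. They held no shared differences in tissue content and no outlying libraries, so they check the procedure and not the real comparisons. By rule the text names the 10 members, pathway genes called against OVX, the 10 coding genes most correlated with Ucp1 and up to 3 genes of a marker list. Genes outside it are given as named after their values were seen. The members and lists were chosen with earlier results of these data known. Alternatives covered DESeq2 1.42.0, its size factors, no filter, the libraries in the fit, the animal numbers, marker covariates and leaving out libraries. The labels do not say whether a library is 1 animal or a pool, so p-values measure the spread between these libraries.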

Additional observations from a re-analysis of the deposited data

Results flagged for a closer look

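The following libraries lay farther from the other 5 of their group than Dixon's critical value allows. Of 84 groups of 6 values checked, 9 met this, where chance alone meets it in about 1 in 20, or 4.2 of 84. Among the thermogenic genes this was Prdm16 in the E2 library C29, at 54.23 CPM against 39.23 to 44.78 CPM in the others. The remaining 8 were means of marker lists, in log2 CPM. Sympathetic neuron markers averaged 1.20 in OVX C5 (7.36 to 8.37 in the others) and 3.97 in TAM C35 (8.24 to 8.74). Smooth muscle markers averaged 9.33 in TAM C35 (7.87 to 8.39). Skeletal muscle markers averaged 3.46 in OVX C2 (−0.51 to 0.41) and 2.92 in E4 C20 (−0.61 to −0.02). Heart muscle markers averaged −0.62 in OVX C5 (−0.33 to −0.22) and 0.52 in TAM C12 (−0.54 to −0.27). Endothelial markers averaged 6.81 in E4 C39 (6.21 to 6.43). OVX C5 was also the highest OVX library for Ucp1 and Cidea, and E4 C20 the lowest E4 library for both. The cause of these differences was not tested. No gene passed an adjusted p under 0.05 in a test of whether the treatment effects differed between the runs of animal numbers (edgeR, 0 of 25033 in each of the 3 comparisons with OVX, with 859, 1429 and 2704 at an unadjusted p under 0.05).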

How the results depend on the processing

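No paired analysis was possible because no animal number is shared between groups. The count of members called was lower with E4 against OVX under several settings, namely 1 with no filter, with the number run as a covariate or in the first run (Ucp1 in each), and 0 in the second run, with the adipocyte or the sympathetic neuron mean as a covariate, or without OVX C5 and TAM C35. It ranged from 0 to 3 without 1 library, 0 being without OVX C5 and 3 without OVX C4. At the adjusted p alone it was 5 with E4 and 2 with E2. In the second run it was 0 for E2 against OVX, E4 against E2 and TAM against E2. For E4 against E2 it was 0 with the adipocyte covariate and 0 to 1 without 1 library, for TAM against E2 it was 2 with the sympathetic covariate (Dio2 and Elovl3), and for TAM against OVX it was 1 with DESeq2. Ucp1 relative to adipocyte markers with E2, E4 and TAM was −0.39, −0.95 and −0.57 in the first run and −0.65, −0.73 and −0.43 in the second, where exact tests of so few libraries cannot pass, and with E2 −0.26 against Adipoq. Without 1 library it ranged from −0.69 to −0.42, −0.93 to −0.82 and −0.61 to −0.48.

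Of 952 alternative values for single genes in the 3 comparisons with OVX, 891 kept their direction and side of the thresholds, 28 no longer passed, 4 newly passed and 29 changed sign, 0 of the latter for a called value. The sign changes against OVX were Prdm16 with E2 (−0.0096 and −0.0067 with the number run and adipocyte covariates, −0.029 in the first run, −0.037 to 0.062 without 1 library), Elovl3 with E2 (0.42, second run), Plin5 with TAM (−0.021, first run; −0.086 to 0.21 without 1 library) and E4 (−0.001 to 0.30), Ppargc1a with TAM (0.085 with the adipocyte covariate, 0.082 without OVX C5 and TAM C35, −0.17 to 0.016 without 1 library) and Cpt1b with TAM (0.075, adipocyte covariate). Slc27a2 with E4 moved from −0.0087 to just above 0 with DESeq2, its size factors, the 2 groups alone or the number run covariate (0.0064, 0.0068, 0.0071 and 0.0068), 0.19 in the first run, 0.48 and 0.45 with the adipocyte and sympathetic covariates, 0.35 without OVX C5 and TAM C35 and −0.17 to 0.34 without 1 library. Between treated groups, which that count leaves out, signs changed too. Ucp1 in TAM against E2 moved from −0.39 to 0.13 with the adipocyte covariate and 0.07 in the second run. With that covariate Cidea and Cpt1b in E4 against E2 moved from −0.08 each to 0.25 and 0.32. In TAM against E2 Cidea, Cpt1b and Fabp3 moved from 0.21, 0.28 and 0.07 to −0.18, −0.07 and −0.35 in the first run. Cpt1b there reached 0.74 with the adipocyte covariate (edgeR adjusted p = 0.00176). Other signs changed that are not listed here. The cause was not tested. Calls over all genes moved by more than 1.5 times from 318 to 198 and 86 in the first and second run (E2 against OVX), 629 to 5 in the second (E4 against OVX), 618 to 1043 and 0 by run and 280 with the adipocyte covariate (E4 against E2), 413 to 94 in the second (TAM against E2), 49 to 1 and 17 by run and 78 with DESeq2 (TAM against E4), and 77 to 1 and 0 by run, 118 with DESeq2, 17 with the 2 groups alone and 49 without OVX C5 and TAM C35 (TAM against OVX). Leaving out 1 library moved them as far for TAM against OVX (29 without OVX C3, 39 without TAM C33), E4 against OVX (414 without OVX C3) and E4 against E2 (405 without E2 C9). The second run holds 2 OVX libraries, which limits what it can show, and of the 10 genes Elovl3 had the lowest count in a library (122).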

Other observations

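Ucp1 co-varied with marker genes of adipocytes and of sympathetic neurons. After group means were removed, its log2 CPM correlated with the mean of the 15 adipocyte markers over the 24 libraries (Pearson r = 0.77, Spearman rho = 0.75, permutation test within groups, adjusted p = 0.00015 for both, 3 relations tested). The relation held without OVX C4 and C5, the libraries farthest from the median (r = 0.69), and r was 0.91, 0.85, 0.79 and 0.49 within OVX, E2, E4 and TAM. Against the mean of the 12 sympathetic neuron markers the relation was inverse (r = −0.56, adjusted p = 0.000885; rho = −0.56, adjusted p = 0.000975, permutation test). It was −0.48 without OVX C5 and TAM C35 and −0.81, −0.72, −0.59 and −0.53 within the groups. Smooth muscle markers showed none (r = 0.03, adjusted p = 0.866; rho = −0.07, adjusted p = 0.742, permutation test; r = −0.11 without OVX C2 and TAM C35). The shares of a library taken by different tissues are not independent of each other, and their part in these relations was not tested.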
